A study of Mus musculus with 12 samples.

Results

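The genes of the BMP and TGF-beta pathway were followed through a neural differentiation of mouse embryonic stem cells (mESC), in cells enriched for PSA-NCAM and in unsorted control cells. The members were taken by gene symbol from the probe annotation: the BMP and GDF ligands without Gdf3, the TGF-beta, activin and inhibin chains, their receptors, the Smads, the 4 Id genes and the binding proteins Nog, Chrd, Fst, Fstl1 to Fstl5, Grem1 and Bmper. This gave 62 genes on 82 probes, out of 31735 genes or unnamed probes on the array. The brightest probe stood for each gene, and 56 of the 62 could be tested because some group had all 3 of its arrays above background. In all 22314 genes were tested.

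All cells descended from C57BL/6 mESC with eGFP under an actin promoter, taken through embryoid bodies (4 days) and selection in ITSFn medium (6 days). The samples formed 4 groups of 3 biological replicates. Step 4 enriched cells were neural precursors expanded in bFGF (10 ng/ml, 5 days) and then captured on magnetic beads by PSA-NCAM, the polysialylated neural cell adhesion molecule of young neurons and their precursors. Step 4 control cells were neural precursors of the same step without the sort. Step 5 enriched and step 5 control cells had had 7 days of neuronal differentiation with B27 and ascorbic acid at 200 µM and without bFGF. Whether the sort of the step 5 enriched cells came ahead of the 7 days or followed them is not stated in the labels. The sample was labelled with Cy5 and a common mESC RNA with Cy3 on every array, so each level below is a log2 ratio to mESC, given for replicates 1 to 3. The mESC were grown on mouse fibroblasts, and the labels do not say whether these feeder cells were removed before the reference RNA was made.

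BMPs, TGF-betas and activins are dimeric ligands that bring type II and type I receptor kinases together, and the type I receptor then phosphorylates receptor Smads. BMP receptors act on Smad1, Smad5 and Smad9, and TGF-beta and activin receptors on Smad2 and Smad3. Both branches share Smad4 and are held back by the inhibitory Smad6 and Smad7, while noggin, chordin, gremlin and follistatin bind the ligands outside the cell. Id proteins are textbook BMP targets that bind basic helix-loop-helix factors and keep precursors from differentiating, and BMP signalling is known to favour astrocytes over neurons in neural precursors.

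As the Id genes are textbook BMP targets, 3 of their promoters are shown here for the letters that BMP-activated and other Smads are known to bind. The sequences are the 250 bases before the gene start in RefSeq on GRCm38.p6, on the strand of the gene, 5′ to 3′: Id2 at chr12:25096093-25096342 on the minus strand, Id3 at chr4:136143572-136143821 and Id4 at chr13:48260866-48261115 on the plus strand. Capitals mark GGCGCC, the GC-rich Smad1 and Smad5 motif, and CAGAC on either strand, the Smad box.
Id2: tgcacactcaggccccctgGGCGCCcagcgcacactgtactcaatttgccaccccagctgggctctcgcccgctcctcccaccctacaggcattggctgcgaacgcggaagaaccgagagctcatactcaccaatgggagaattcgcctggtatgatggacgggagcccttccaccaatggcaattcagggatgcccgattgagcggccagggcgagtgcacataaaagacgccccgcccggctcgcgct
Id3: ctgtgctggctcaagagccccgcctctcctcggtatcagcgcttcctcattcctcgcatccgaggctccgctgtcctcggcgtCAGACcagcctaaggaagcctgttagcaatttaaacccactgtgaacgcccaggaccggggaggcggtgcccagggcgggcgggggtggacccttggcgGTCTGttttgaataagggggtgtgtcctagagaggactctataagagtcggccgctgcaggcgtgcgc
Id4: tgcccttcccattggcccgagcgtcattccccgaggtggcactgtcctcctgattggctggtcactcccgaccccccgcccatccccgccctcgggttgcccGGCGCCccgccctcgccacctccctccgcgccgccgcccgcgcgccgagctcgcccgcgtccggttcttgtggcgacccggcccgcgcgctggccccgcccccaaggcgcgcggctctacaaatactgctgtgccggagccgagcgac
GGCGCC occurred 1 time in the Id2 window, starting 231 bases before the gene start, and 1 time in the Id4 window, starting 148 bases before it, and did not occur in that of Id3. CAGAC occurred 2 times in the Id3 window and in neither of the other windows. CANNTG, the E-box bound by basic helix-loop-helix factors, occurred 1 time in the Id2 window alone, and no match overlapped a match of another motif. Among 32851 promoters of the RefSeq set, 9.59% held GGCGCC, 42.2% held CAGAC and 66.2% held CANNTG in a window of the same length. A match is a description of the letters and no evidence of binding. The set held a promoter for 46 of the 62 members and none for Id1, and whether these letters bear on the values below was not tested.

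Genes are not independent replicates, and across them Pearson's r between arrays of a group was 0.897 to 0.963 in step 4 enriched cells and 0.736 to 0.850 in step 4 control cells. It was 0.940 to 0.962 in step 5 enriched cells and 0.662 to 0.918 in step 5 control cells. Replicate 2 of every group lay on slide 2, which was scanned on another day, and its arrays stood apart in 9 endoderm and epithelium markers. Their median log2 ratio was 3.08 at step 4 and 2.93 at step 5 on its control arrays, against 0.57 to 1.36 on the other control arrays. On its enriched arrays the median was 1.58 at step 4, against 0.03 and -0.17 on the other step 4 enriched arrays. At step 5 it was 1.99, against -0.83 and 0.04 on the other step 5 enriched arrays. All 10 pluripotency markers were lower in enriched cells at both steps. Their median was -5.01 to -3.75 in step 4 enriched cells and -1.14 to -0.76 in the control cells, and -4.92 to -3.06 in step 5 enriched cells against -0.97 to -0.66 in the control cells. Of 9 neuron markers, 1 was higher in enriched cells at step 4 and 9 at step 5. At these steps, 1 and 5 of 6 astrocyte markers and 4 and 5 of 9 neural stem cell markers were higher. So were 0 and 4 of 7 oligodendrocyte lineage markers and 2 and 1 of 10 mesenchyme and fibroblast markers. The mesenchyme median was 2.88 to 3.396 and 3.83 to 4.26 in enriched cells. In control cells it was 1.42 to 2.67 and 2.503 to 4.53. Lower were 2 and 2 of 5 endothelium, 2 and 3 of 9 endoderm and epithelium, and 0 and 4 of 5 muscle markers. Of all genes, 15% and 20.3% were higher and 16.2% and 20.2% lower. The part of these differences in cell makeup in the results below was not tested. In RNA from whole cell populations, fewer cells of a type and less RNA per cell cannot be told apart.

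At step 4, 15 of the 56 tested members passed the test between enriched and control cells, with 11 higher and 4 lower in enriched cells. Of all genes tested 31.1% passed, 15% higher and 16.2% lower. The members' median difference was 0.38 on the log2 scale, against 0.01 over all genes. At step 5, 19 members passed, with 13 higher and 6 lower, where 40.5% of all genes passed, 20.3% higher and 20.2% lower. Their median difference was 0.28 there, against -0.01 over all genes. The share of members past the test was thus not above the background at either step, and the members past it leaned to the higher side at both. In all, 12 members passed at both steps and 34 at neither. The shares of all genes past the test at both steps and at neither are not given here. The counts of 12 and 34 are thus not set against a background. All 3 enriched arrays lay above all 3 control arrays in 16 members at step 4 and 16 at step 5, where 22.1% and 25.6% of all genes did so. They lay below in 6 and 10 members, against 24.8% and 25.6% of all genes.

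**Figure D1:**
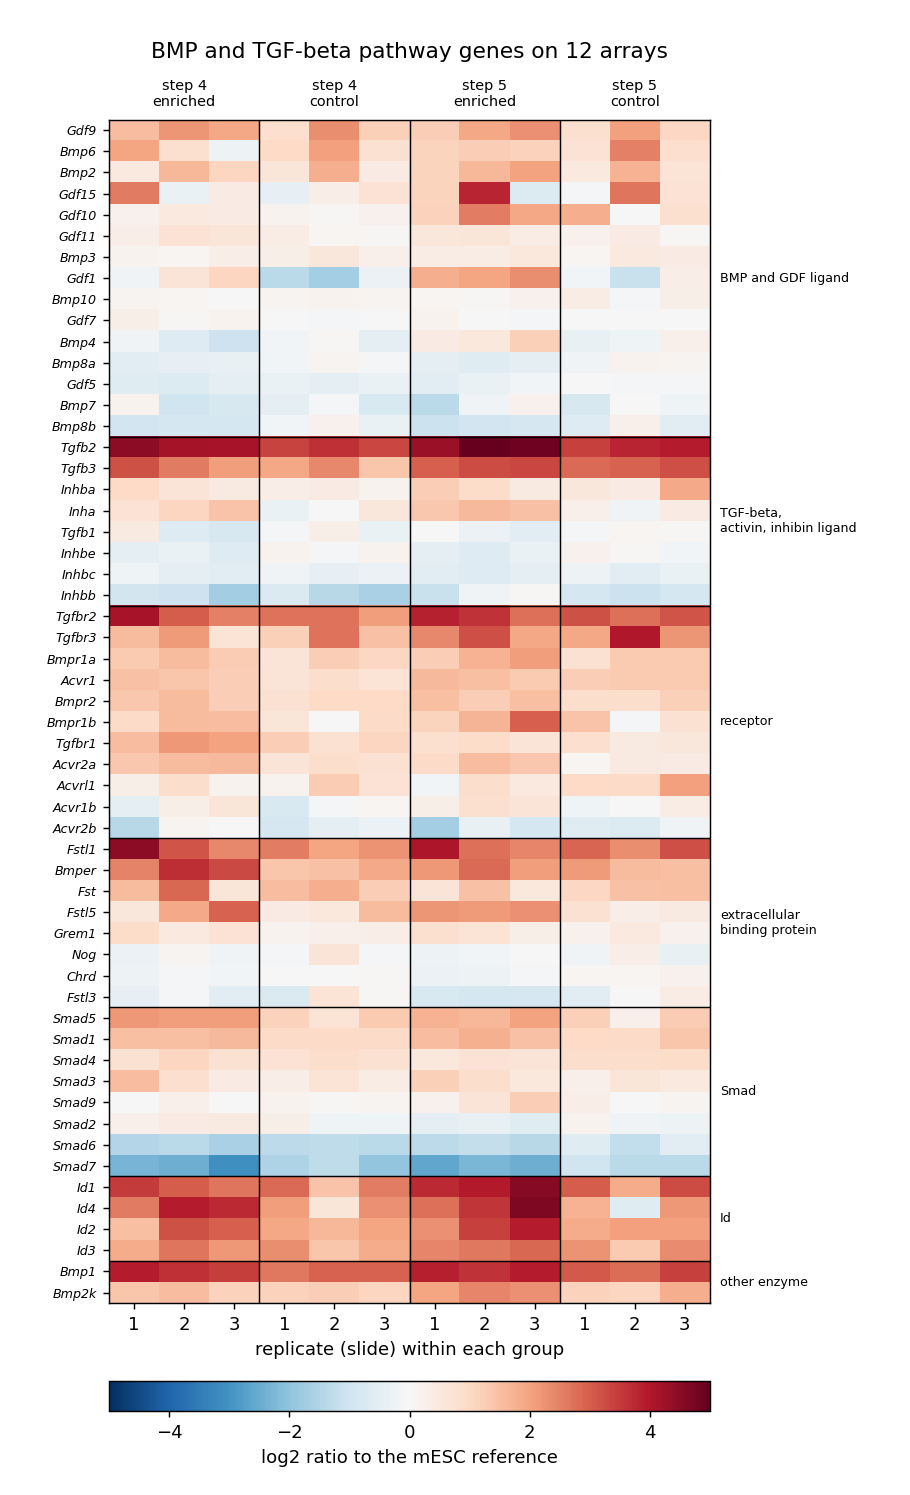
Log2 ratio to mESC of the 56 tested members (rows, by family) on the 12 arrays (columns, replicates 1 to 3 of each group). Tgfb2, Bmp1, Fstl1, Tgfbr2, Id1, Id2 and Id3 are red, above mESC, on all 12 arrays, and Smad6 and Smad7 are blue, below mESC, on all 12.

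**Figure D2:**
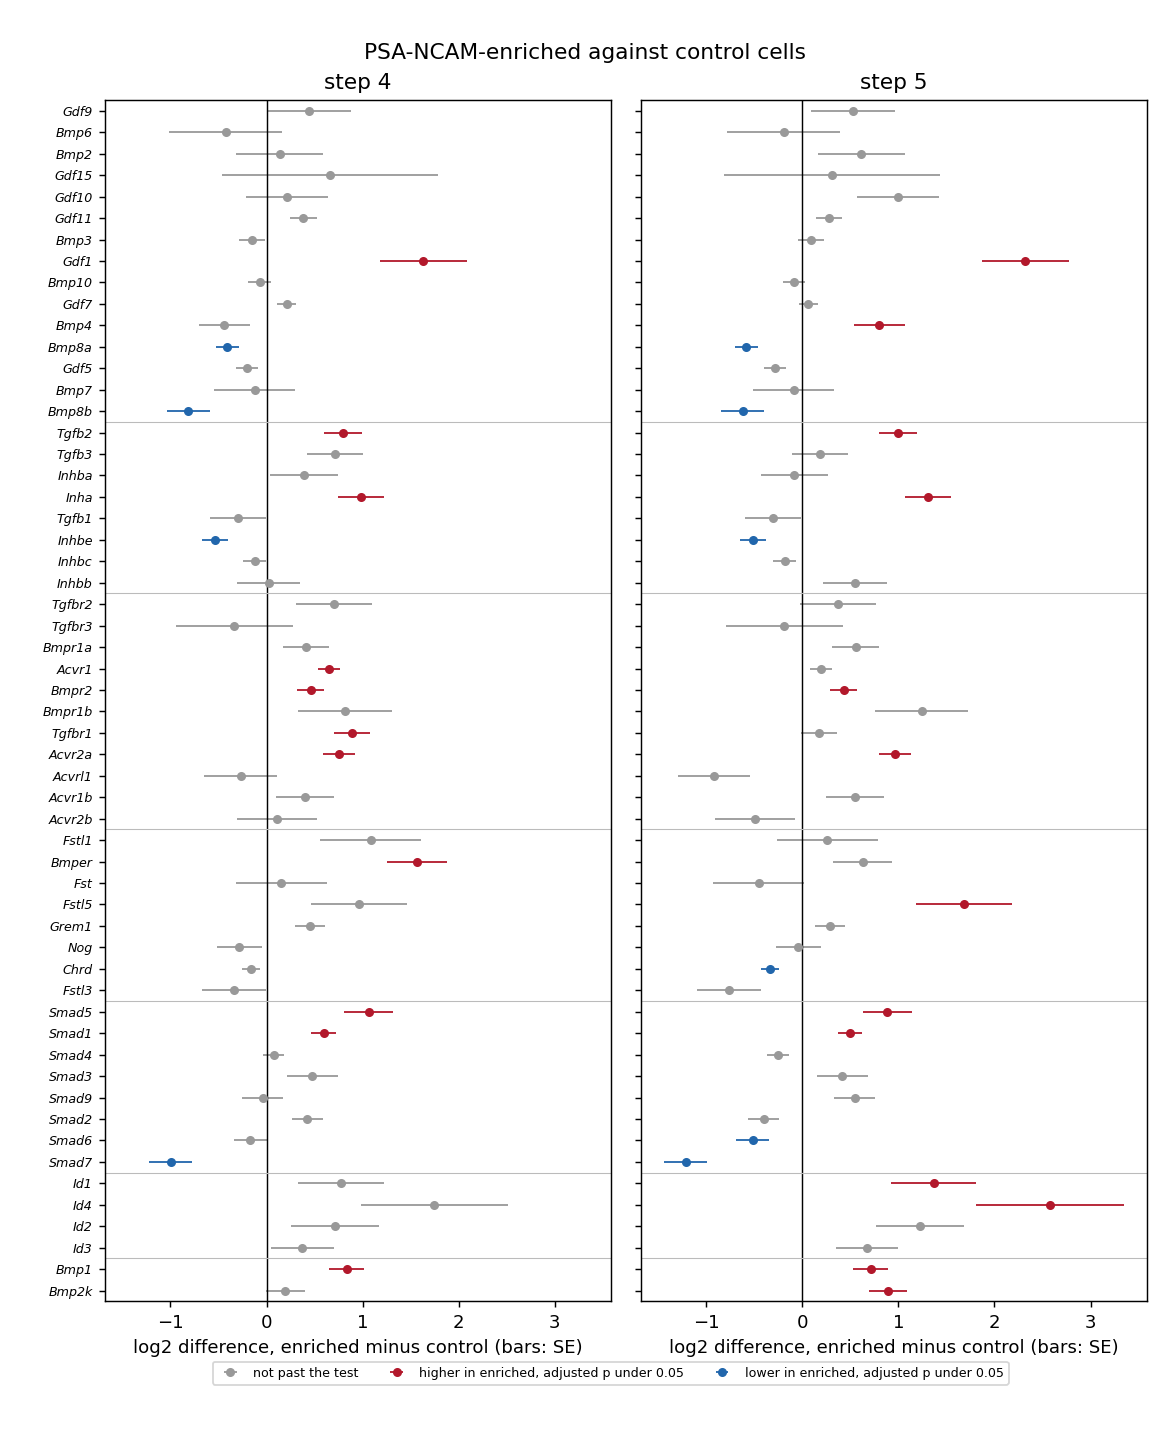
Log2 difference of enriched minus control cells for the 56 tested members at step 4 and step 5, with bars for the SE of the fit and families separated by grey lines. Red points are the 11 and 13 members higher in enriched cells, blue points the 4 and 6 lower ones, and grey points did not pass the test.

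Among the 15 tested BMP and GDF ligands, Gdf1, a partner of Nodal in the early embryo, had the largest difference. Its probe (mm9, chr8:72855399-72855458) read -0.19, 0.65 and 1.09 in step 4 enriched cells, against -1.35, -1.70 and -0.29 in the control cells. At step 5 Gdf1 read 1.80, 1.96 and 2.32 in enriched cells, against -0.12, -1.09 and 0.33 in the control cells. Enriched arrays lay above control arrays at both steps. The difference was 1.63 at step 4 (SE 0.45, 3.09-fold, adjusted p = 0.0214) and 2.32 at step 5 (SE 0.45, 5.00-fold, adjusted p = 0.00278). The annotation also assigns this probe to Cers1, a ceramide synthase gene that shares a transcript with Gdf1, so RNA of these genes cannot be told apart here. A dimmer probe of the same transcripts differed by 0.07 and 0.23 and did not pass, and with the mean of both probes the differences were 0.85 and 1.27. The step 4 call was lost without step 4 enriched replicate 2 (1.56) or 3 (1.34) or step 4 control replicate 1 (1.51) or 2 (1.34).

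Bmp4, a dorsalising ligand of the neural tube, was the 1 BMP or GDF ligand that passed as higher at step 5 than at step 4 in enriched cells. It read 0.40, 0.51 and 1.18 in step 5 enriched cells, against -0.20, -0.63 and -1.02 in step 4 enriched cells, with no overlap. The rise was 1.31 (SE 0.27, 2.49-fold, adjusted p = 0.0187). In control cells it read -0.35, -0.20 and 0.24 at step 5, against -0.13, 0.05 and -0.45 at step 4, and these ranges overlapped. Enriched cells lay above control cells at step 5 by 0.80 (SE 0.27, adjusted p = 0.0340), on 3 of 3 slides. At step 4 the difference was -0.44 (SE 0.27, adjusted p = 0.235). The enrichment effects differed between the steps by 1.24 (SE 0.37), which did not pass over all genes (adjusted p = 0.451). The Bmp4 call at step 5 was lost without step 5 enriched replicate 3 (0.56) or step 5 control replicate 1 (0.68) or 2 (0.75), and the rise without step 4 enriched replicate 2 (1.31) or 3 (1.11) or step 5 enriched replicate 3 (1.07). Over all 22 alternatives the step 5 call was lost in 7 and the call of the rise in 4.

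Bmp8a and Bmp8b, near-identical neighbours on chromosome 4, were lower in enriched cells at both steps. Bmp8a read -0.55, -0.39 and -0.38 in step 4 enriched cells, against -0.15, 0.14 and -0.07 in the control cells, a difference of -0.41 (adjusted p = 0.0263). At step 5 its enriched arrays read -0.49, -0.62 and -0.49, against -0.16, 0.17 and 0.15 in the control arrays, a difference of -0.58 (adjusted p = 0.00367). Bmp8b differed by -0.81 at step 4 (adjusted p = 0.0196) and -0.62 at step 5 (adjusted p = 0.0452), and its probe was above background on 2 of 3 enriched arrays at each step. The Bmp8a call at step 4 was lost without any 1 of the step 4 enriched replicates (-0.44 to -0.36) or without step 4 control replicate 2 (-0.33). Without step 5 control replicate 2 the Bmp8b difference at step 5 was -0.33, and its call there was lost without any 1 array except step 4 control replicate 2 and step 5 control replicates 1 and 3 (-0.68 to -0.33). At step 4 the Bmp8b call was lost without enriched replicate 2 (-0.82) or 3 (-0.83) or control replicate 2 (-0.67). With the scanner's own processed ratios Bmp8b differed by -1.93 and -1.63. Whether each probe also binds RNA of the other gene was not tested.

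Bmp7, a ligand of the roof plate and of kidney and eye development, did not pass in any comparison. It read 0.16, -1.00 and -0.80 in step 4 enriched cells, against -0.44, -0.06 and -0.76 in the control cells, and -1.35, -0.17 and 0.21 in step 5 enriched cells, against -0.81, -0.01 and -0.22 in the control cells. The groups overlapped, and the 95% interval of the difference ran from -1.06 to 0.81 at step 4 and from -1.02 to 0.85 at step 5. The other 10 tested ligands (Bmp2, Bmp3, Bmp6, Bmp10, Gdf5, Gdf7, Gdf9, Gdf10, Gdf11 and Gdf15) did not pass at either step. Gdf11 had a difference of 0.38 at step 4, with an adjusted p of 0.0568 that became 0.0456 with the replicate number as a block. Gdf15, a stress-induced cytokine, was the most variable, from -0.67 to 3.83 in step 5 enriched cells and from -0.06 to 2.68 in the control cells. For Gdf10 the probe was not well above background on any step 4 control array, so that level is only a bound. Gdf10 read 1.14, 2.56 and 1.93 in step 5 enriched cells, against 0.20, 0.47 and 0.40 in step 4 enriched cells, without overlap, and the difference of 1.52 did not pass (adjusted p = 0.0626). Bmp2, Bmp3 and Gdf10 were not above background on any of the 12 mESC channels, so that their ratios to mESC have no measured base.

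Among the 8 TGF-beta, activin and inhibin chains, Tgfb2 stood highest over mESC. It read 4.49, 4.16 and 4.12 in step 4 enriched cells, against 3.38, 3.64 and 3.35 in the control cells. At step 5 Tgfb2 read 4.31, 4.99 and 4.87 in enriched cells, against 3.43, 3.80 and 3.94 in the control cells. No enriched array fell within the control range at either step. Tgfb2 was higher in enriched cells by 0.79 at step 4 (SE 0.20, 1.73-fold, adjusted p = 0.0141) and by 1.00 at step 5 (SE 0.20, 2.00-fold, adjusted p = 0.00320), and its other probe differed by 0.91 and 0.89. With the scanner's own processed ratios the Tgfb2 differences were 0.08 and 0.61 and neither passed, and with an offset of 10 in the background correction the step 4 difference was 0.50 and did not pass.

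Inha, the alpha chain that turns activin into inhibin, was higher in enriched cells at both steps. It read 0.73, 1.05 and 1.41 in step 4 enriched cells, against -0.32, 0.01 and 0.56 in the control cells. At step 5 its enriched arrays read 1.36, 1.61 and 1.45, against 0.27, -0.16 and 0.40 in the control arrays. The difference was 0.98 at step 4 (SE 0.24, 1.98-fold, adjusted p = 0.0128) and 1.31 at step 5 (SE 0.24, 2.48-fold, adjusted p = 0.00214). The step 4 call for Inha was lost without step 4 enriched replicate 3 (0.81), and with the scanner's own processed ratios the step 4 difference was 1.54. Inhbe, an inhibin beta chain known from liver, was lower in enriched cells, with a difference of -0.54 at step 4 (adjusted p = 0.0158) and -0.51 at step 5 (adjusted p = 0.0140). The Inhbe call was lost without step 4 enriched replicate 3 (-0.45) or step 4 control replicate 1 (-0.49) at step 4, and without step 5 enriched replicate 2 (-0.44) or step 5 control replicate 1 (-0.43) at step 5. With the scanner's own processed ratios it differed by -0.81 and -1.01.

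The activin beta chains Inhba and Inhbb did not pass. Inhba read 1.01, 0.65 and 0.44 in step 4 enriched cells, against 0.35, 0.40 and 0.18 in the control cells, without overlap but with an adjusted p of 0.436. At step 5 Inhba read 1.24, 0.91 and 0.44 in enriched cells, against 0.58, 0.39 and 1.88 in the control cells. Replicate 3 of the step 5 control cells was the highest of all 12 arrays for Inhba. Inhbb, below mESC on 11 of 12 arrays, read -0.90, -1.04 and -1.74 in step 4 enriched cells, against -0.72, -1.40 and -1.62 in the control cells. At step 5 Inhbb read -1.10, -0.17 and 0.05 in enriched cells, against -0.88, -1.09 and -0.89 in the control cells. Both pairs overlapped.

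Tgfb1 and Tgfb3 did not pass either, although they sat far apart in level against mESC. Tgfb1, the main TGF-beta of blood cells and platelets, read 0.44, -0.66 and -0.79 in step 4 enriched cells, against -0.06, 0.28 and -0.33 in the control cells. At step 5 Tgfb1 read -0.04, -0.28 and -0.52 in enriched cells, against -0.05, 0.08 and 0.06 in the control cells. Tgfb1 thus overlapped between enriched and control cells at both steps. Tgfb3, known from palate fusion, read 3.20, 2.58 and 2.09 in step 4 enriched cells, against 1.93, 2.39 and 1.40 in the control cells (difference 0.71, adjusted p = 0.0886). At step 5 Tgfb3 read 2.99, 3.28 and 3.32 in enriched cells, against 2.85, 2.95 and 3.23 in the control cells (difference 0.19, adjusted p = 0.651). In control cells alone the step 5 arrays of Tgfb3 all lay above the step 4 arrays, by 1.10 on average, which did not pass (adjusted p = 0.267). For Inhbc the probe was not well above background on any step 4 enriched array, so that level is only a bound, and the step 4 difference did not pass (adjusted p = 0.482).

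**Figure D3:**
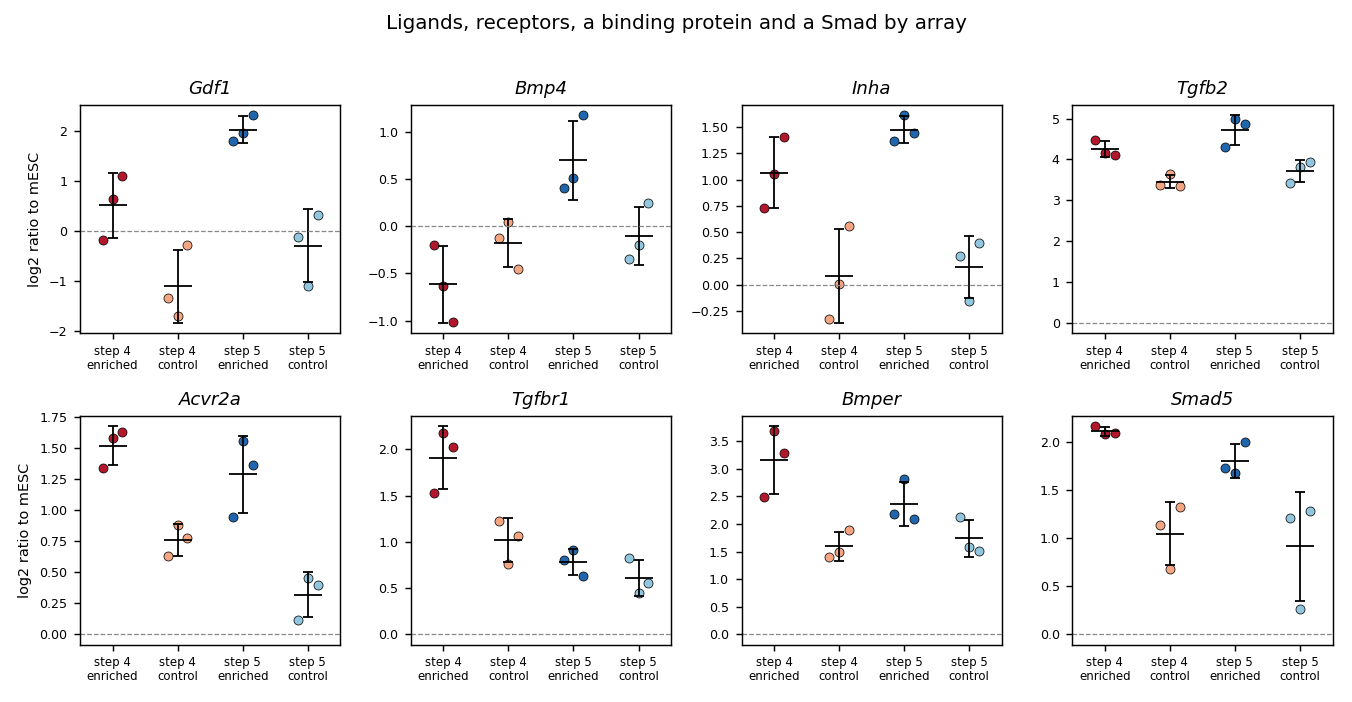
Log2 ratio to mESC of 4 ligand chains (Gdf1, Bmp4, Inha, Tgfb2), 2 receptors (Acvr2a, Tgfbr1), the binding protein Bmper and Smad5 on each array, with replicates 1 to 3 from left to right in each group, horizontal lines for group means and bars for the SD (n = 3). Each panel has its own axis, and Bmp4 is above the 3 other groups in step 5 enriched cells, as is Tgfbr1 in step 4 enriched cells.

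Of the 11 tested receptors, 4 were higher in enriched cells at step 4 and 2 at step 5, and none was lower. Of all genes, 15% were higher and 16.2% lower at step 4, and 20.3% were higher and 20.2% lower at step 5. The type II activin receptor Acvr2a and the type II BMP receptor Bmpr2 were higher at both steps. Acvr2a read 1.34, 1.58 and 1.63 in step 4 enriched cells, against 0.63, 0.88 and 0.78 in the control cells, a difference of 0.76 (SE 0.17, 1.69-fold, adjusted p = 0.00767). At step 5 Acvr2a read 0.94, 1.55 and 1.36 in enriched cells, against 0.11, 0.45 and 0.39 in the control cells, a difference of 0.97 (SE 0.17, 1.95-fold, adjusted p = 0.00145). Its dimmer probe differed by 0.50 and 0.23. The direction was the same on 3 of 3 slides at each step. Bmpr2 read 1.33, 1.58 and 1.23 in step 4 enriched cells, against 0.77, 0.99 and 0.99 in the control cells, a difference of 0.46 (adjusted p = 0.0289). At step 5 Bmpr2 read 1.50, 1.23 and 1.52 in enriched cells, against 0.88, 0.90 and 1.18 in the control cells, a difference of 0.43 (adjusted p = 0.0299). No Bmpr2 array overlapped. Its call was lost without step 4 enriched replicate 2 (0.36), step 4 control replicate 1 (0.39) or 2 (0.50) at step 4, and without step 5 enriched replicate 1 (0.39) or 3 (0.38) or step 5 control replicate 1 (0.38) or 2 (0.39) at step 5. Over all 22 alternatives the Bmpr2 call was lost in 4 at step 4 and in 6 at step 5.

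The type I receptors Tgfbr1 and Acvr1 were higher in enriched cells at step 4. Tgfbr1, the type I receptor of the TGF-betas, read 1.53, 2.18 and 2.02 in step 4 enriched cells, against 1.23, 0.76 and 1.06 in the control cells, a difference of 0.89 (SE 0.19, 1.86-fold, adjusted p = 0.00632). At step 5 Tgfbr1 read 0.80, 0.91 and 0.63 in enriched cells, against 0.83, 0.45 and 0.55 in the control cells, and the groups overlapped (difference 0.17, adjusted p = 0.505). Within enriched cells Tgfbr1 was lower at step 5 than at step 4 (difference -1.13, SE 0.19, 2.18-fold, adjusted p = 0.00887), a call kept under all 22 alternatives. Its dimmer probe gave 0.40 at step 4, -0.09 at step 5 and -0.54 between the steps, in the same directions as the bright probe except at step 5. The effects of enrichment at the steps differed by -0.72 (SE 0.27), which did not pass (adjusted p = 0.590). Acvr1, also called Alk2, a type I BMP receptor, was higher in enriched cells by 0.65 at step 4 (SE 0.11, adjusted p = 0.00261). It differed by 0.19 at step 5.

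The BMP type I receptors Bmpr1a and Bmpr1b missed the threshold at step 5 and passed it with the replicate number as a block. Bmpr1a read 1.21, 1.74 and 2.09 in step 5 enriched cells, against 0.76, 1.31 and 1.31 in the control cells (difference 0.55, adjusted p = 0.0909, 0.0181 with the block, 0.0181 to 0.303 over the alternatives), and without step 5 enriched replicate 3 the difference was 0.35. At step 4 Bmpr1a read 1.29, 1.57 and 1.28 in enriched cells, against 0.65, 1.22 and 1.04 in the control cells. Bmpr1a arrays overlapped at step 5 and not at step 4. Bmpr1b read 1.13, 1.69 and 2.98 in step 5 enriched cells, against 1.41, -0.09 and 0.76 in the control cells (difference 1.24, adjusted p = 0.0653, 0.0450 with the block, 0.0300 to 0.234 over the alternatives), and without step 5 enriched replicate 3 the difference was 0.72. The direction held on 3 of 3 slides for Bmpr1a and on 2 of 3 for Bmpr1b at step 5. At step 4 Bmpr1b read 0.96, 1.56 and 1.53 in enriched cells, against 0.61, 0.02 and 0.97 in the control cells. Its other, dimmer probe was higher in enriched cells at step 5 by 1.09 (adjusted p = 0.0272 over all probes). The brightest Bmpr1b probe was above background on 2 of 3 step 5 control arrays and in 3 of 12 mESC channels.

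Tgfbr2, the type II receptor of the TGF-betas, read 4.11, 3.03 and 2.51 in step 4 enriched cells, against 2.73, 2.71 and 2.11 in the control cells. At step 5 Tgfbr2 read 3.85, 3.60 and 2.75 in enriched cells, against 3.19, 2.75 and 3.16 in the control cells. Tgfbr2 stood above mESC everywhere and its enriched and control arrays overlapped at both steps. The differences of 0.70 and 0.37 did not pass, and the other Tgfbr2 probe went the other way, by -0.61 and -0.34. Acvr2b, a type II activin receptor, read -1.37, 0.15 and -0.01 in step 4 enriched cells, against -0.82, -0.43 and -0.30 in the control cells. At step 5 Acvr2b read -1.70, -0.36 and -0.87 in enriched cells, against -0.59, -0.68 and -0.18 in the control cells. Its 95% interval ran from -0.81 to 1.03 at step 4 and from -1.42 to 0.43 at step 5. With the block, Acvr1b, the type I activin receptor, passed at step 5 as higher (0.55, adjusted p = 0.0143) and Acvrl1, the endothelial type I receptor, as lower in enriched cells (-0.92, adjusted p = 0.0371), and Tgfbr3, the co-receptor betaglycan, passed as higher at step 5 than at step 4 in enriched cells (1.05, adjusted p = 0.0409). None of these passed without it on the brightest probe. The dimmer Acvr1b probe was higher in enriched cells at step 5 without the block, by 0.41 (adjusted p = 0.0291 over all probes).

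Among the 8 tested binding proteins, Bmper was higher in enriched cells at step 4 and Fstl5 at step 5, and Chrd was lower at step 5. The share of all genes past the test was 31.1% at step 4 and 40.5% at step 5. Bmper, a secreted BMP-binding protein, read 2.49, 3.69 and 3.29 in step 4 enriched cells, against 1.40, 1.48 and 1.89 in the control cells, with no overlap. The difference was 1.56 (SE 0.31, 2.96-fold, adjusted p = 0.00488), and it was kept under all 22 alternatives. At step 5 Bmper read 2.19, 2.82 and 2.08 in enriched cells, against 2.12, 1.58 and 1.50 in the control cells, and the groups overlapped (difference 0.63, adjusted p = 0.136). The difference between the steps in this effect was -0.94 (SE 0.44) and did not pass (adjusted p = 0.719).

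Fstl5, a follistatin-like gene, read 2.22, 2.11 and 2.28 in step 5 enriched cells, against 0.78, 0.34 and 0.45 in the control cells. This was a rise of 1.68 over control cells (SE 0.50, 3.21-fold, adjusted p = 0.0215), and 3.51 with the scanner's own processed ratios. The step 5 enriched arrays were close together for Fstl5, while the step 4 enriched arrays spread widely. At step 4 Fstl5 read 0.55, 1.89 and 2.93 in enriched cells, against 0.40, 0.53 and 1.56 in the control cells, with overlap. Its call at step 5 was lost without step 5 enriched replicate 1 (1.68) or 3 (1.64) or step 5 control replicate 2 (1.59) or 3 (1.65). Bmper was above background in 1 of 12 mESC channels and Fstl5 in 0.

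The classical BMP antagonists Nog and Chrd stayed near the mESC level. Nog, noggin, read -0.30, 0.12 and -0.17 in step 4 enriched cells, against -0.05, 0.65 and -0.10 in the control cells. At step 5 Nog read -0.27, -0.12 and 0.04 in enriched cells, against -0.18, 0.33 and -0.37 in the control cells. Nog overlapped between enriched and control cells at both steps, with 95% intervals of the difference from -0.80 to 0.23 and from -0.56 to 0.47. Chrd, chordin, read -0.28, -0.24 and -0.10 in step 5 enriched cells, against 0.10, 0.10 and 0.20 in the control cells. Chrd differed at step 5 by -0.34 (SE 0.09, 1.26-fold lower in enriched cells, adjusted p = 0.0143), a call lost without step 5 control replicate 3 (-0.30). At step 4 Chrd read -0.25, -0.08 and -0.15 in enriched cells, against -0.03, -0.01 and 0.05 in the control cells (difference -0.16, adjusted p = 0.206).

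Fst, follistatin, the activin-binding protein, read 1.56, 2.87 and 0.62 in step 4 enriched cells, against 1.55, 1.83 and 1.22 in the control cells. At step 5 Fst read 0.66, 1.46 and 0.54 in enriched cells, against 1.05, 1.46 and 1.51 in the control cells. Its arrays overlapped at both steps and the differences of 0.15 and -0.46 did not pass. Fstl1, Fstl3 and Grem1 did not pass either. Fstl1 reached 4.49 in replicate 1 of step 4 enriched cells, the highest value of the binding proteins on any array.

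Of the receptor Smads of the BMP branch, Smad1 and Smad5 were higher in enriched cells at both steps, and the inhibitory Smad7 was lower at both. Smad1 read 1.52, 1.52 and 1.60 in step 4 enriched cells, against 0.95, 0.96 and 0.94 in the control cells (difference 0.60, SE 0.13, 1.51-fold, adjusted p = 0.00705). At step 5 Smad1 read 1.56, 1.79 and 1.48 in enriched cells, against 0.99, 0.96 and 1.39 in the control cells (difference 0.50, adjusted p = 0.0113). Smad5 read 2.16, 2.07 and 2.09 in step 4 enriched cells, against 1.14, 0.68 and 1.32 in the control cells (difference 1.06, SE 0.25, 2.09-fold, adjusted p = 0.0111). At step 5 Smad5 read 1.73, 1.67 and 2.00 in enriched cells, against 1.21, 0.26 and 1.28 in the control cells (difference 0.88, SE 0.25, 1.85-fold, adjusted p = 0.0187). No enriched array overlapped a control array for either gene. Both rest on 1 probe: the 2 other Smad1 probes differed by 0.06 and 0.05 at step 4 and by 0.21 and 0.01 at step 5, and the other Smad5 probe by -0.10 and -0.34. With the mean of a gene's probes the Smad1 difference was 0.23 at step 4 and 0.24 at step 5 and did not pass, and that of Smad5 was 0.48 at step 4, past the test, and 0.27 at step 5, not past it. Without step 5 control replicate 2 the step 5 difference of Smad5 was 0.56 and passed, and without step 5 enriched replicate 3 it was 0.78 and did not. Without the control arrays of replicate 2 at both steps, the Smad1 difference at step 5 was 0.42 and did not pass.

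Smad7, the inhibitory Smad that both branches induce as feedback, was below mESC on all 12 arrays. It read -2.31, -2.43 and -3.05 in step 4 enriched cells, against -1.54, -1.27 and -1.99 in the control cells. At step 5 Smad7 read -2.60, -2.28 and -2.44 in enriched cells, against -1.00, -1.34 and -1.34 in the control cells. The enriched arrays all lay below the control arrays. Smad7 differed by -1.00 at step 4 (SE 0.23, 2.00-fold lower, adjusted p = 0.00880) and -1.21 at step 5 (SE 0.23, 2.32-fold lower, adjusted p = 0.00216), and both calls were kept under all 22 alternatives. Smad6, the inhibitory Smad of the BMP branch, read -1.45, -1.37 and -1.63 in step 4 enriched cells, against -1.31, -1.28 and -1.36 in the control cells (difference -0.17, adjusted p = 0.380). At step 5 Smad6 read -1.33, -1.20 and -1.40 in enriched cells, against -0.62, -1.25 and -0.51 in the control cells. The step 5 difference for Smad6 was -0.52 (SE 0.17, adjusted p = 0.0355), but replicate 2 of the control cells lay among the enriched arrays. The Smad6 call was lost without any 1 of the step 5 enriched replicates (-0.57 to -0.47) or without step 5 control replicate 1 (-0.43) or 3 (-0.38). Over all 22 alternatives it was lost in 8.

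Smad3, which acts in the TGF-beta and activin branch, read 1.55, 0.84 and 0.43 in step 4 enriched cells, against 0.34, 0.67 and 0.39 in the control cells. At step 5 Smad3 read 1.20, 0.87 and 0.54 in enriched cells, against 0.25, 0.61 and 0.50 in the control cells. Smad3 overlapped at both steps, and the differences of 0.48 and 0.41 did not pass. Without enriched replicate 1 of the same step they were 0.17 and 0.25. Smad2, of the same branch, differed between the steps in enriched cells. It read -0.47, -0.36 and -0.61 in step 5 enriched cells, against 0.26, 0.41 and 0.44 in step 4 enriched cells, a difference of -0.85 (SE 0.16, 1.80-fold lower, adjusted p = 0.0147). The Smad2 call was lost without step 4 enriched replicate 2 (-0.83) or step 5 enriched replicate 3 (-0.79). In control cells Smad2 read 0.19, -0.19 and -0.23 at step 5, against 0.27, -0.22 and -0.21 at step 4. The enrichment effect on Smad2 differed between the steps by -0.83 (SE 0.23), which did not pass over all genes (adjusted p = 0.397). Smad4, the shared partner, differed by 0.07 at step 4 and -0.26 at step 5, where it passed as lower with the block alone (adjusted p = 0.0494). For Smad9 the probe was not well above background on any step 4 array. Its step 4 levels are thus only bounds, and the difference of step 5 from step 4 enriched cells did not pass (adjusted p = 0.117).

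All 4 Id genes stood above mESC in every group mean, and their differences between enriched and control cells were positive at both steps, with a median of 0.74 at step 4 and 1.29 at step 5. The size at step 4 rests in part on 1 library, since without step 4 control replicate 2 the differences were 0.34 for Id1, 0.61 for Id2, 0.14 for Id3 and 1.21 for Id4. No Id gene passed at step 4 and 2 passed at step 5, where 31.1% and 40.5% of all genes passed. Id4, expressed in neural stem cells and astrocytes, read 2.77, 3.56 and 4.68 in step 5 enriched cells, against 1.73, -0.62 and 2.17 in the control cells. This was a rise of 2.58 over control cells (SE 0.77, 5.97-fold, adjusted p = 0.0218), the largest difference between enriched and control cells of any tested member. At step 4 Id4 read 2.59, 3.93 and 3.72 in enriched cells, against 2.10, 0.59 and 2.30 in the control cells, without overlap (difference 1.75, SE 0.77, adjusted p = 0.108). The control array of slide 2 was the lowest of its group for Id4 at each step, and the differences by slide were 1.05, 4.18 and 2.51 at step 5. The step 5 call for Id4 was lost without step 5 control replicate 2 (1.72) or step 5 enriched replicate 3 (2.07).

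Id1, the most BMP-responsive of the family in textbook use, read 3.72, 3.98 and 4.53 in step 5 enriched cells, against 3.02, 1.85 and 3.27 in the control cells. It was higher in enriched cells by 1.37 (SE 0.44, 2.58-fold, adjusted p = 0.0313). Its control array of slide 2 was also the lowest, and the call was lost without it (0.94), without step 5 enriched replicate 2 (1.42) and without step 5 enriched replicate 3 (1.14). At step 4 Id1 read 3.48, 3.02 and 2.66 in enriched cells, against 2.84, 1.42 and 2.58 in the control cells, with overlap (difference 0.78, adjusted p = 0.210). In enriched cells the step 5 arrays of Id1 all lay above the step 4 arrays, by 1.02 on average, which did not pass (adjusted p = 0.210).

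Id2 read 2.28, 3.42 and 3.93 in step 5 enriched cells, against 1.87, 2.05 and 2.05 in the control cells. No array overlapped, and the difference of 1.22 (SE 0.46, 2.33-fold) had an adjusted p of 0.0551, or 0.0224 with the replicate number as a block (0.0140 to 0.195 over the alternatives). At step 4 Id2 read 1.52, 3.20 and 2.98 in enriched cells, against 1.93, 1.65 and 1.98 in the control cells, with replicate 1 of the enriched cells below all control arrays. Id3 read 2.43, 2.62 and 2.86 in step 5 enriched cells, against 2.25, 1.29 and 2.36 in the control cells. Those arrays did not overlap, but the difference of 0.67 did not pass (SE 0.33, adjusted p = 0.127) and was 0.33 without step 5 control replicate 2. At step 4 Id3 read 1.87, 2.69 and 2.15 in enriched cells, against 2.34, 1.40 and 1.85 in the control cells (difference 0.37, adjusted p = 0.421). The difference of the enrichment effects between steps ran from 0.30 to 0.83 for the 4 Id genes and passed for none of them.

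**Figure D4:**
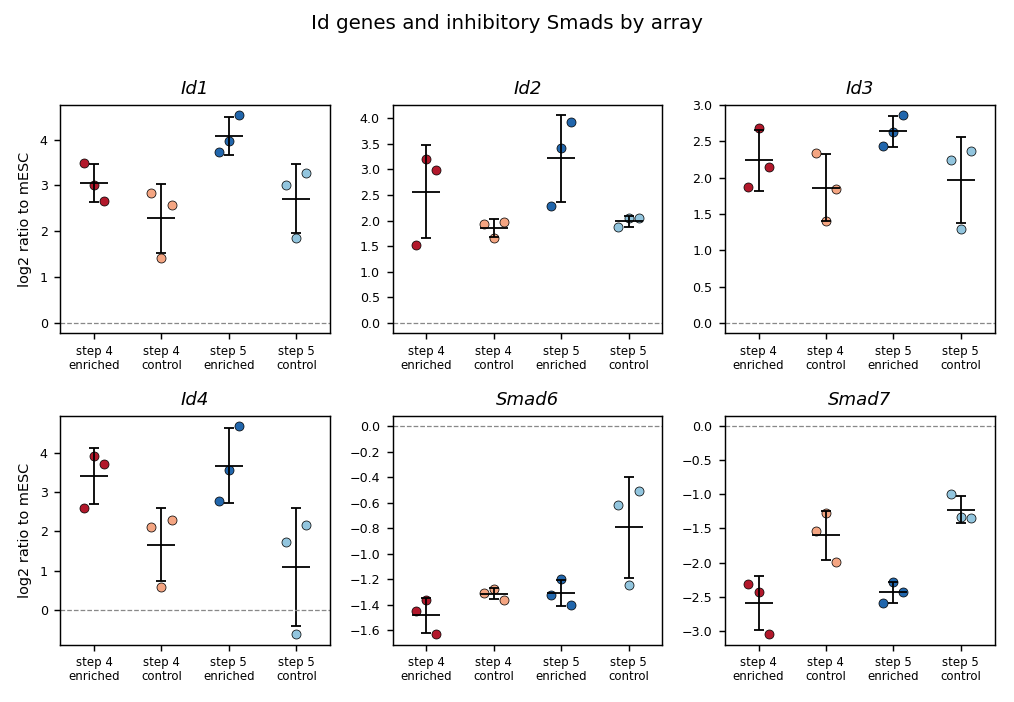
Log2 ratio to mESC of Id1 to Id4, Smad6 and Smad7 on each array, with replicates 1 to 3 from left to right in each group, horizontal lines for group means and bars for the SD (n = 3). The middle point of each control group, from slide 2, is the lowest for Id1, Id3 and Id4, and all Smad7 points lie below 0, with enriched cells below control cells.

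Bmp1, a metalloprotease that cuts procollagen and chordin and is no BMP ligand, read 3.94, 3.64 and 3.47 in step 4 enriched cells, against 2.64, 2.94 and 2.96 in the control cells (difference 0.83, SE 0.18, adjusted p = 0.00769). At step 5 Bmp1 read 3.89, 3.62 and 3.91 in enriched cells, against 3.07, 2.79 and 3.42 in the control cells (difference 0.71, SE 0.18, adjusted p = 0.0111). The enriched arrays lay above the control arrays at both steps. Bmp1 has 2 other probes, which differed by 0.20 and 0.02 at step 4, and with the mean of its probes the differences were 0.35 and 0.26 and did not pass. Bmp2k, a kinase named for its induction by BMP2, read 1.99, 2.46 and 2.28 in step 5 enriched cells, against 1.16, 1.08 and 1.82 in the control cells (difference 0.89, SE 0.20, 1.85-fold, adjusted p = 0.00570). In step 4 enriched cells it read 1.37, 1.54 and 1.15, so that it was also higher at step 5 than at step 4 within enriched cells, by 0.89 (adjusted p = 0.0277). This last call for Bmp2k was lost without any 1 of the step 4 enriched replicates (0.79 to 0.98) or without step 5 enriched replicate 2 (0.78) or 3 (0.87).

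Between the steps, 4 of the 56 members passed in enriched cells, Bmp4 and Bmp2k as higher and Tgfbr1 and Smad2 as lower at step 5, where 6.42% of all genes passed, 3.96% higher and 2.46% lower. All 4 had no overlap between the steps. The step 5 arrays all lay above the step 4 arrays in 6 members and below in 5, against 14.5% and 14.3% of all genes. Gdf1 passed as higher at step 5 with the block alone (difference 1.51, adjusted p = 0.0797, 0.0188 with the block). The count of members changed with single libraries: without step 4 enriched replicate 2 or step 5 enriched replicate 3, 1 member passed, and without step 4 enriched replicate 3, 2 passed. The share of all genes past the test in these fits is not given here. Whether the lower counts reflect dependence on a library or a general loss of calls with fewer arrays was not tested. In control cells 0 members passed in limma, as did 0% of all genes, and 5 of 56 members had an unadjusted p under 0.05, where 8.59% of all genes did. The step 5 control arrays all lay above the step 4 control arrays in 6 members and below in 1, against 7.34% and 5.24% of all genes. Acvr1 had the smallest p of any tested member in control cells and read 1.25, 1.31 and 1.30 in step 5 control cells, against 0.63, 0.86 and 0.68 in step 4 control cells (difference 0.56, adjusted p = 0.147). The difference of the enrichment effects between steps passed for 0 members in limma and 0% of all genes, and 5 members had an unadjusted p under 0.05, where 7.06% of all genes did. These 5 were Smad2, Bmp4, Acvr1, Tgfbr1 and Bmp2k, so a member called at 1 step and not at the other was not shown to differ between the steps.

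Other genes of the pathway were counted in 3 lists. Of 33 tested extracellular regulators, 5 were higher and 7 lower in enriched cells at step 4, and 6 were higher and 8 lower at step 5, where 15% and 16.2% of all genes were higher and lower at step 4 and 20.3% and 20.2% at step 5. Nodal, the TGF-beta family ligand of the early embryo, differed by -3.03 at step 4 (adjusted p = 0.000207) and -2.72 at step 5 (adjusted p = 0.000185), lower in enriched cells. Amhr2, the type II receptor of anti-Mullerian hormone, was also lower, at -2.26 (adjusted p = 0.000696) and -2.12 (adjusted p = 0.000515). Rgmb, a BMP co-receptor of the nervous system, was higher by 1.77 (adjusted p = 0.00793) and 1.92 (adjusted p = 0.00338). All 10 pluripotency markers were lower in the same comparisons, as given above, and their part in these values was not tested. Of 25 tested intracellular regulators, 8 were higher and 2 lower at step 4, and 7 were higher and 5 lower at step 5, beside the same shares of all genes. Zeb2, a Smad-binding transcriptional repressor, was higher by 1.32 at step 4 (adjusted p = 0.00892) and 1.71 at step 5 (adjusted p = 0.00163), and Zfp423, a Smad partner at BMP targets, was higher by 1.81 at step 4 (adjusted p = 0.00356) and 1.54 at step 5 (adjusted p = 0.00502). Among the lower ones, Tgif1, a homeodomain corepressor of Smads, differed by -1.28 at step 4 (adjusted p = 0.00133) and -1.16 at step 5 (adjusted p = 0.00131). Its relative Tgif2 differed by -1.26 at step 5 (adjusted p = 9.2e-05).

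Of 20 textbook target genes of the pathway outside the members, 0 were higher and 1 lower at step 4, and 1 was higher and 2 lower at step 5. Of all genes, 15% were higher and 16.2% lower at step 4, and 20.3% and 20.2% at step 5. An unadjusted p under 0.05 was found for 4 of the targets at step 4 and 5 at step 5, where 42.6% and 48.8% of all genes had one. The higher one was Hey1, a Notch and BMP target, at 2.11 (adjusted p = 0.0291) at step 5. Tbx3, a T-box factor lower in enriched cells at both steps, differed by -2.47 at step 4 (adjusted p = 0.00222) and -3.20 at step 5 (adjusted p = 0.000349). In enriched cells 4 extracellular regulators were higher and 0 lower at step 5 than at step 4, 0 intracellular regulators were higher and 2 lower, and 1 target was higher and 0 lower, where 3.96% of all genes were higher and 2.46% lower.

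Several genes had more than 1 probe, which shows how far a value rests on the choice of probe. Of 14 members with at least 2 tested probes, all tested probes shared a sign in 12 at step 4, in 10 at step 5 and in 12 between the steps in enriched cells. The median gap between probes of a gene was 0.40 at step 4 and 0.25 at step 5, and the largest was that of Gdf1, 1.56 and 2.10. Tgfb2 had probes close to each other, at 0.79 and 0.91 at step 4.

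**Figure D5:**
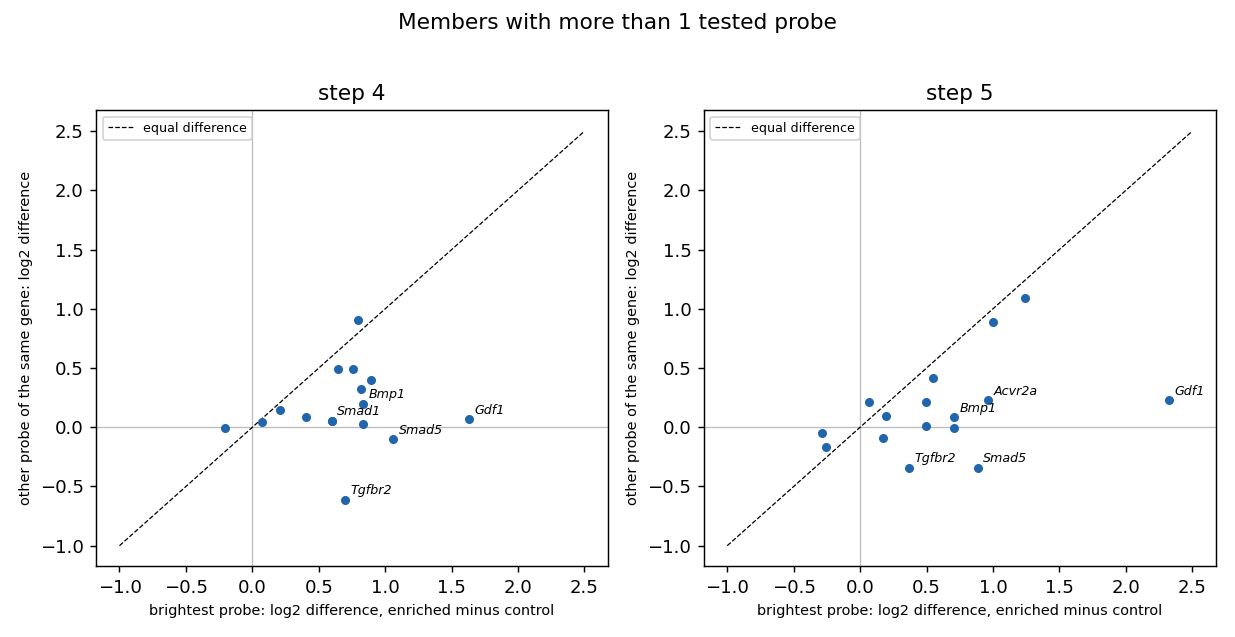
Log2 difference of enriched minus control cells for the brightest probe of a gene (x axis) and for each of its other tested probes (y axis), at step 4 and step 5, for the 14 members with at least 2 tested probes. The dashed line marks equal differences, and Gdf1, Smad5 and, at step 4, Tgfbr2 lie farthest from it.

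The 6 members that were not tested were Acvr1c, Bmp15, Bmp5, Fstl4, Gdf2 and Gdf6. Bmp15, Fstl4 and Gdf2 were above background on 0 of the 12 arrays in the sample channel, which is a statement on this probe and not on the gene. Acvr1c was above background on 2 of 3 arrays in each enriched group and on 0 of the control arrays. Bmp5 was so on 1 of 3 step 4 enriched and 2 of 3 step 5 enriched arrays, and Gdf6 on 2 of 3 step 4 enriched, 1 of 3 step 5 enriched and 2 of 3 step 5 control arrays.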

How the data were processed

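RNA of 12 samples was measured on 2-colour Agilent mouse arrays, 3 biological replicates in each of 4 groups, from 100 ng of RNA per the labels' protocols, with 0 dye swaps. Per the file headers, the scanner files hold mean signal and median background as intensity in both channels, the probe positions are on mm9, and the software's own ratio of Cy5 to Cy3 is a log10 value. The values deposited as processed data are in log2, and per array 99.3 to 99.5% of its values equalled the scanner's ratio within 0.001. How the authors normalized beyond this is not given in the sources used here.

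From the intensities, background was corrected by normexp (offset 50) and each array by loess in R 4.3.3 with limma 3.58.1. Control and outlier spots were left out. All 12 arrays entered 1 model on 4 group means with eBayes, two-sided, Benjamini-Hochberg over all genes tested, at an adjusted p of 0.05. Genes entered the test when the sample channel passed the scanner's background flag on each of the 3 arrays of some group. The fit was first tried on simulated arrays with planted changes larger than any difference of the members and with no slide effect. That trial does not show how the fit performs on smaller differences or on paired arrays. The number of arrays limits the precision.

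Deviations from the group means correlated between arrays of the same replicate number, which is the slide, at 0.130 to 0.747 in the 4 pairs of groups compared, so the numbers were taken to pair the arrays and the block is given where it changes a call. The correlations were -0.134 to 0.228 between step 4 enriched and step 5 control arrays, and 0.250 to 0.334 between step 4 control and step 5 enriched arrays. That pairing comes from these correlations and the shared slide, and the labels state none. The main model does not use it, and calls and counts are from that model unless the block is named. Values on every array are given for members past the test with at least 2-fold and for a list of 24 core members. Over the 3 other pathway lists as 1 pool, the 3 largest differences past the test in each direction at each step are named. Members and lists were chosen with earlier results of these data known, and a few further genes, Tgif1 and Tgif2 among them, were named after their values were seen. One gene that the symbol rule also matches is not reported here and is left out of the members and their counts.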

Additional observations from a re-analysis of the deposited data

How the results depend on the processing

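Each comparison was recomputed under 22 alternatives (21 for the difference of effects), all but 1 of them planned: other background, scaling, filter, probe and source of values, the replicate number as a block, a fit on the groups compared alone, and each array left out. Without any 1 array, 11 to 18 members passed at step 4, 12 (without step 5 enriched replicate 3) to 21 at step 5, 1 to 6 between the steps in enriched cells and 0 to 1 in control cells, and 0 in the difference of effects. In the fit on the compared groups alone, 11 members passed at step 5. Leaving out the control arrays of replicate 2 at both steps, an alternative chosen after seeing the data, 13 passed at step 4, 17 at step 5, 7 between the steps in enriched cells and 1 in control cells. With the replicate block, 16 passed at step 4, 25 at step 5 and 6 between the steps in enriched cells, and the block changed no call other than those given above. The share of all genes past the test in each alternative is not given here, so these counts are not set against a background.

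The members past the test kept their direction in every alternative. At step 4 they stayed past the threshold in 306 of 330 recomputed values, at step 5 in 362 of 418 and between the steps in enriched cells in 77 of 88. The losses named for single genes above are mostly those without 1 array, and other alternatives lost some calls too. Bmp8b at step 5 lost its call most often, in 11 of 22 alternatives. Reversals fell on members that had not passed. At step 5 the scanner's processed ratios gave Inhba 0.16 and Nog 0.0968, and the deposited table gave Inhba 0.16 and Nog 0.0967. Without the control arrays of replicate 2, Bmp7 was 0.0547 at step 4 and 0.0803 at step 5, Inhbb was -0.0552 at step 4 and Nog was 0.1592 at step 5. Leaving out 1 array gave at step 4 a range of -0.17 to 0.59 for Acvr2b, -0.48 to 0.10 for Bmp7, -0.44 to 0.69 for Fst and -0.16 to 0.28 for Inhbb. At step 5 it gave -0.41 to 0.37 for Bmp7, -0.36 to 0.38 for Inhba and -0.19 to 0.16 for Nog. The cause was not tested. Signal over background limits Gdf10, Inhbc and Smad9, among others named above, and the 3 arrays per group limit all values.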
